A study of Mus musculus with 6 samples.

Results

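The clustered protocadherin genes lie in 3 neighbouring groups, alpha, beta and gamma, on mouse chromosome 18. Of the 123510 ATAC-seq peaks of the series, 56 belong to this region. They comprise 47 peaks to which the authors attached a Pcdha, Pcdhb or Pcdhg gene name, and 9 unnamed peaks that start between 36.9 and 37.9 Mb (GRCm38). By cluster, 20 peaks fell to alpha, 21 to beta (20 named and 1 unnamed), 7 to gamma, and 8 unnamed peaks lay between the clusters, 4 on either side of beta. Peak presence and WT strength were described for each cluster, and KO was compared with WT.

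Clustered protocadherins are adhesion molecules of the cell surface, best known for giving neurons individual identities through combinations of isoforms. In the alpha and gamma clusters each variable exon has its own promoter and encodes an entire extracellular part, and is spliced to constant exons shared by the cluster. Beta genes carry their coding sequence in a single large exon and have no constant exons. The C-type genes (Pcdhac1, Pcdhac2, Pcdhgc3, Pcdhgc4 and Pcdhgc5) stand at the ends of the alpha and gamma arrays and are expressed more uniformly between neurons than the other isoforms.

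ATAC-seq tags DNA that is open to a transposase. It was applied to nuclei of whole small intestinal crypts of mice, with 3 wild type (WT) and 3 Smarcad1-KO libraries. In the KO, a Cre transgene driven by the Villin promoter removes floxed exons of Smarcad1, a chromatin remodelling factor, in the intestinal epithelium. All animals were males of the C57BL/6 background, and the floxed allele comes from 1 ES cell clone. The age of the animals and the Cre and floxed status of the WT mice were not given in the sources used here. Nuclei of other crypt cell types, if present, keep Smarcad1. In bulk nuclei, fewer cells of a type and less open chromatin per cell cannot be told apart.

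Reads in peaks ranged from 4339306 (KO3) to 16301164 (WT3) per library, and the values are log2 read counts scaled to the largest library. The excess of the median promoter peak (within 1 kb of any gene start) over the median distal peak (over 5 kb away) differed between libraries. It was lowest in the number 2 libraries (1.81 in WT2, 1.73 in KO2) and highest in number 3 (2.12 in WT3, 2.28 in KO3). WT1 and KO1 lay between, at 1.90 and 1.95. Among fixed cell type markers, 6 of 8 epithelial genes had a named peak, the strongest per gene at a median WT level of 7.62 (log2 value per kb). Epcam and Vil1 had no named peak. Among markers of enteric neurons and glia, Elavl4, Ret and S100b had one (median 6.73), and Sox10 and Uchl1 had none. The log2 of the summed value over the neuronal and glial marker peaks was 9.48 to 9.99 in WT and 9.40 to 9.81 in KO. Stromal, endothelial and immune markers had a named peak for 5 of 6, 3 of 3 and 3 of 5 genes. The part of these cells in the protocadherin signal was not tested.

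The names in the deposited table do not identify isoforms, since all 20 alpha peaks carry Pcdhac1 and all 7 gamma peaks carry Pcdhga11. Peaks were therefore placed on the 58 genes that GENCODE annotates in the clusters, 14 alpha (chr18:36930184-37187661), 22 beta (chr18:37264938-37524479) and 22 gamma (chr18:37661793-37841873).

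Most clustered protocadherin promoters had no peak. A peak lay within 1 kb of the gene start for 0 of 14 alpha, 1 of 22 beta and 5 of 22 gamma genes, compared with 12996 of 21881 other protein-coding genes (59.4%). The 1 beta gene was Pcdhb4, whose peak began 996 bp past the start. No alpha or beta start lay inside a peak, whereas the 5 gamma peaks (Pcdhga7, Pcdhgb6, Pcdhgb8, Pcdhgc3 and Pcdhgc4) covered theirs. Of the 5 C-type genes, only Pcdhgc3 and Pcdhgc4 had a start with a peak. The same set of peaks serves all libraries, so presence has no replicate, and the libraries used to call it are not stated. A missing peak says that the caller passed none there, not that the DNA is closed.

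The alpha and beta genes instead carried peaks far inside their large exons. A peak lay on the large exon but only past the start in 10 of 14 alpha genes (71.4%) and 18 of 22 beta genes (81.8%). The same was found in 1 of 22 gamma genes (Pcdhgc5) and in 66 of 541 other protein-coding genes with a first exon of at least 2 kb (12.2%). Of those 541 genes, 267 had a peak over the start and so could not be counted as past it only. Another 208 had no peak on the first exon. The alpha genes without an exon peak were Pcdha2, Pcdha4, Pcdhac1 and Pcdhac2, and the beta genes were Pcdhb1, Pcdhb18, Pcdhb19 and Pcdhb21. The genes of a cluster are paralogs with similar exons, so their peaks are not independent observations.

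**Figure D1:**
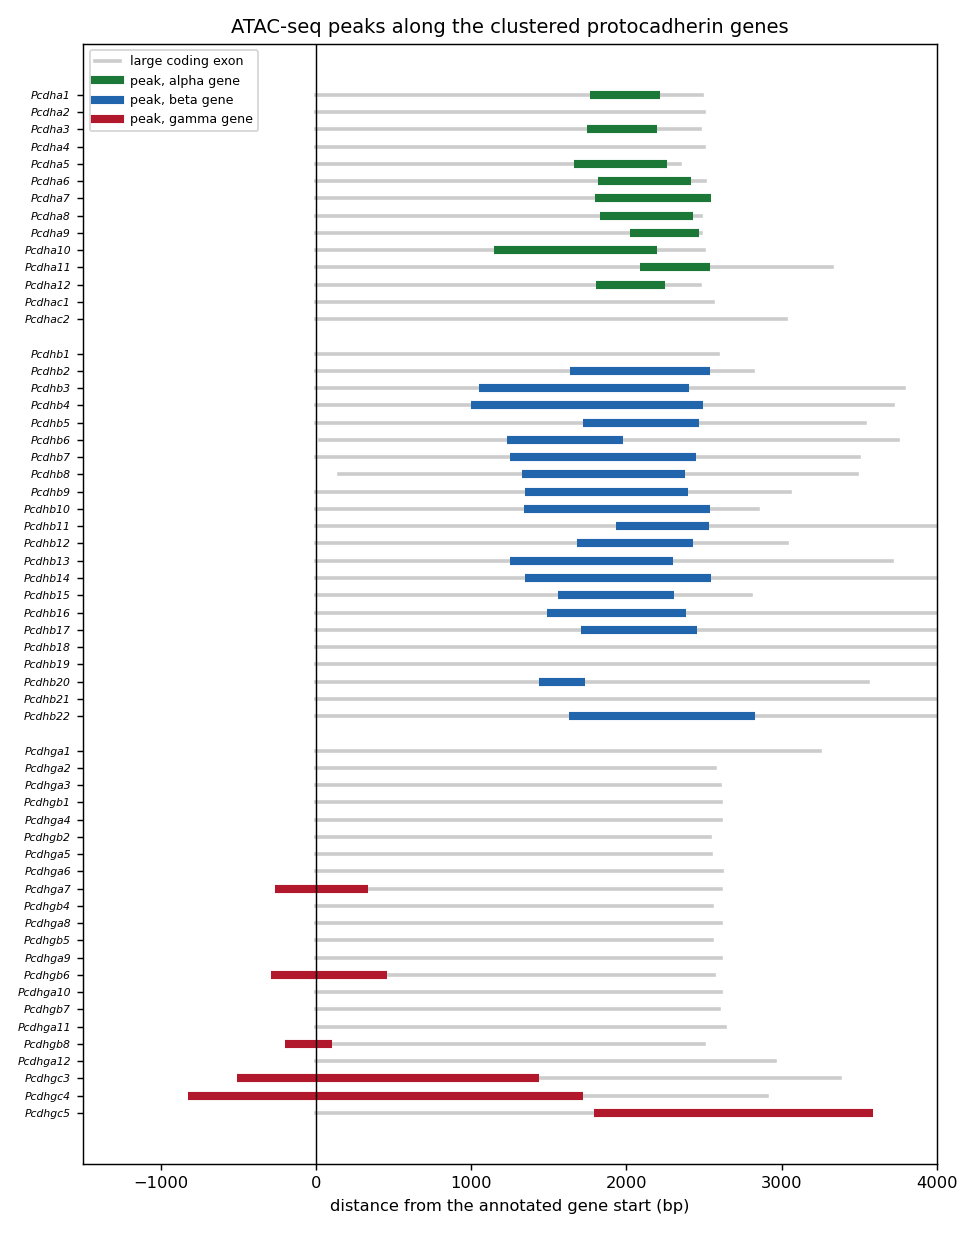
Peaks of the series (coloured bars) along the 58 clustered protocadherin genes, by distance from the annotated start in bp; grey lines are the large coding exons, drawn up to 4000 bp. Alpha (green) and beta (blue) peaks lie at a like distance past the start, and 5 of 6 gamma genes with a peak (red) have it over the start.

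The position was much alike within and between both clusters. The 11 alpha exon peaks were centred 1448 to 2314 bp past the start (median 2027 bp), and the 19 beta exon peaks 1587 to 2530 bp past it (median 1936 bp). Pcdha10 and Pcdhb22 each held 2 adjoining peaks. In the 250 bp bin centred 2125 bp past the start, 71.4% of alpha and 72.7% of beta genes had a peak, against 4.55% of gamma genes and 9.06% of the other genes with long first exons. In the bin centred at 125 bp, a peak was present in 0% of alpha and beta genes, 18.2% of gamma genes and 50.5% of the other genes.

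These exon stretches are rich in G+C in all 3 clusters. At 2125 bp the mean G+C content was 55.3% in alpha, 59.0% in beta and 59.2% in gamma genes. Alpha genes reached 59.9% also at 375 bp, where none had a peak. Their highest mean was 60.9% at 1625 bp, where 7.14% had a peak. The observed to expected CpG ratio was 0.58 in the median alpha exon peak and 0.45 in the median beta exon peak, against 0.16 over all peaks.

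Reads that fit several isoforms equally well are lost when a mapping quality limit is set, so the sequence was searched for 50-mers (the read length) that occur once in the genome. Around the start, in the bins centred at 125 bp on either side, 90.9% to 100% of 50-mers were unique on average in alpha and all of them in beta genes. The lowest alpha gene had 59.2% in the bin past the start. Mean uniqueness dropped to 57.0% at 375 bp (lowest gene 5.6%) and 55.3% at 1625 bp (lowest gene 22.4%) in alpha genes. In the window 1750 to 2500 bp past the start, the 10 alpha genes with an exon peak had a median of 97.4% unique 50-mers and the 4 without had 99.9%. In beta the medians were 93.3% (18 genes) and 82.7% (4 genes). In gamma they were 100% (6 genes, lowest 76.5%) and 99.3% (16 genes, lowest 54.9%). In 5 of these 6 gamma genes, however, the peak lay over the start and outside this window. The reads were paired, and single 50-mers take no account of the mate. Over the peaks themselves, 82.9% to 100% of 50-mers were unique.

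**Figure D2:**
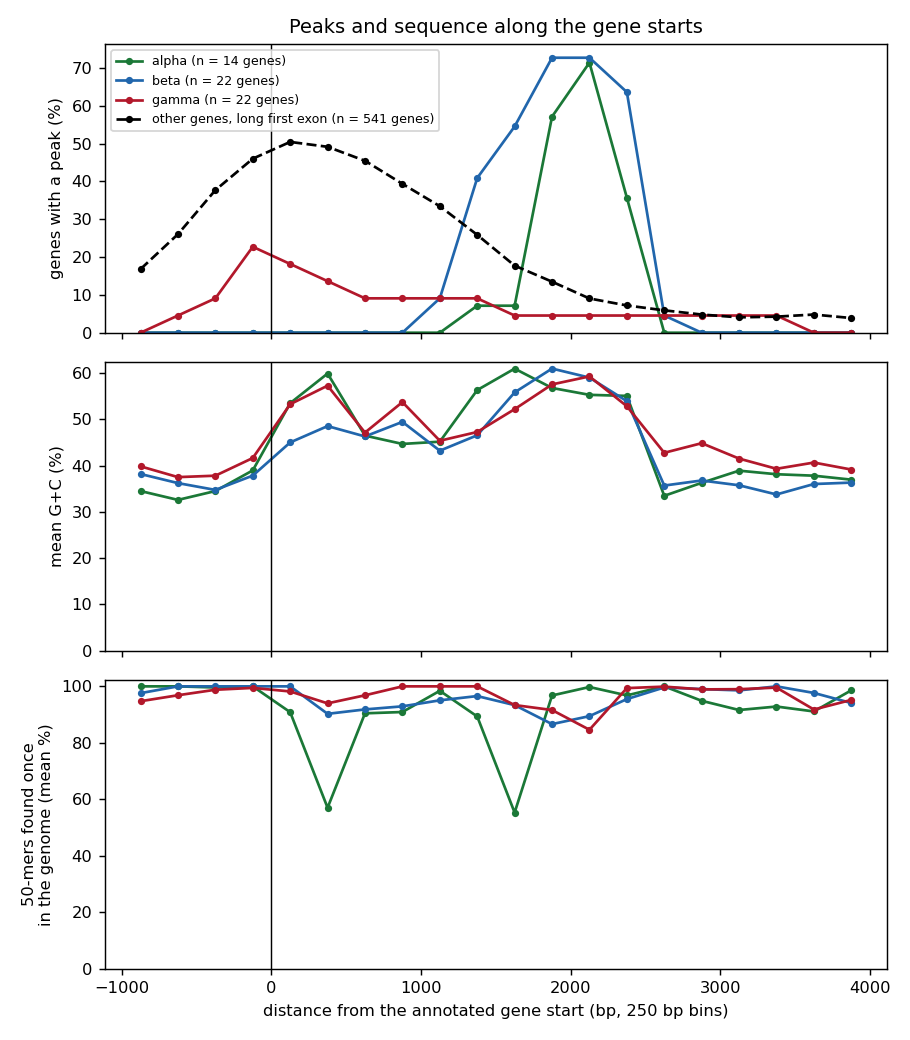
Share of genes with a peak (top), mean G+C content (middle) and mean share of 50-mers found once in the genome (bottom) by distance from the gene start in 250 bp bins, for 14 alpha, 22 beta and 22 gamma genes and, at the top, 541 other genes with a long first exon. Alpha and beta peak at 2125 bp (71.4% and 72.7%), whereas the other genes peak at 125 bp (50.5%).

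The remaining peaks lay outside the large exons. In alpha, 9 such peaks included 1 over the non-coding gene Gm36858 between Pcdha7 and Pcdha8, 4 lying 18203 to 25703 bp before the start of Pcdhac2, and 1 just past the end of the last constant exon (chr18:37187851-37188450). In gamma, 1 peak lay between constant exons (chr18:37827301-37828350, overlapping Gm38182). No member overlapped a constant exon. These alpha peaks had a median CpG ratio of 0.08 and the peaks between clusters 0.05, both below that of all peaks.

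In WT, the gamma peaks were the strongest per length. The mean over the peaks of a cluster was 6.63 ± 0.19 log2 value per kb in gamma, 6.33 ± 0.14 in alpha and 6.19 ± 0.12 in beta (SD over 3 libraries). In WT1, WT2 and WT3, gamma exceeded beta by 0.33, 0.24 and 0.74, and alpha by 0.16, 0.14 and 0.59. Beta minus alpha was -0.17, -0.09 and -0.15. The order gamma, alpha, beta was thus the same in each WT library, but gamma exceeded beta by 0.44 ± 0.27 and alpha by 0.30 ± 0.26 (mean and SD), so the lead over alpha was little larger than its spread. Without the 3 peaks at C-type genes, a choice made after seeing the data, gamma exceeded beta by 0.30 and alpha by 0.16. In KO2, gamma lay below both.

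The order depended on peak width. The median peak spanned 450 bp in alpha, 750 bp in beta and 1050 bp in gamma. As levels per peak, beta exceeded alpha by 0.59 ± 0.04 and gamma exceeded beta by 0.83 ± 0.27 (SD, n = 3 WT libraries). Set against the median of all peaks of the same width, alpha lay at -0.05 ± 0.18, gamma at -0.15 ± 0.05 and beta at -0.29 ± 0.25. By that measure 19 of 21 beta, 12 of 20 alpha and 4 of 7 gamma peaks were weaker than the typical peak of their width. The 8 peaks between clusters (6.21 ± 0.17 log2 value per kb) were all weaker than it.

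**Figure D3:**
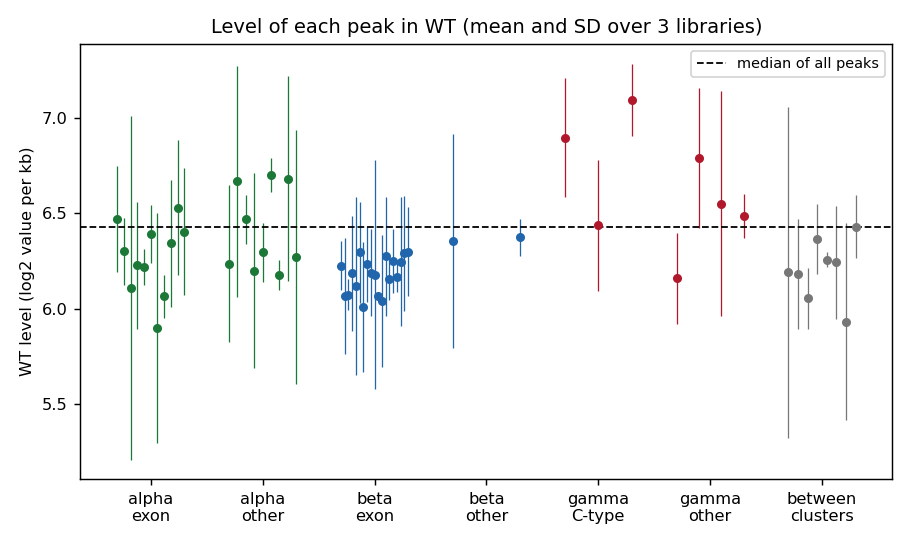
WT level of each of the 56 peaks in log2 value per kb (points and bars: mean and SD over 3 WT libraries), split by cluster and position on the large exon; the dashed line is the median of all peaks (6.43). Of the members, 13 lie above that line, among them all 3 C-type gamma peaks.

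The 3 gamma peaks at C-type genes had the highest WT mean log2 values of the 56 members. The peak over the start of Pcdhgc3 (chr18:37805851-37807800), which also overlaps the antisense gene BC037039, had log2 values of 7.91, 7.52 and 8.14 in WT1 to WT3 and 8.24, 7.30 and 8.63 in KO1 to KO3. The peak over the start of Pcdhgc4 (chr18:37814251-37816800) had 7.90, 7.40 and 8.06 in WT and 8.04, 7.47 and 8.46 in KO. The peak across the end of the Pcdhgc5 exon (chr18:37821301-37823100) had 8.06, 7.72 and 8.04 in WT and 7.93, 7.59 and 8.17 in KO. Its centre lay at 102% of the exon length, just inside the following intron. In all 3 peaks the number 2 library was the lowest of either genotype, and the genotypes overlapped.

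The C-type gamma peaks averaged 6.81 ± 0.28 log2 value per kb in WT, 0.63 ± 0.35 above the beta exon peaks (SD, n = 3), and were higher in all 6 libraries. Against all peaks of the same width, however, all 3 were weaker than the median, with a mean of -0.43 ± 0.10, below that of the beta exon peaks (-0.32 ± 0.28). The Pcdhgc5 peak had the highest level per kb of the 56 (7.10, the 85.0th percentile of all peaks), followed by Pcdhgc3 (6.90, 80.6th percentile). Pcdhgc4, in the widest peak, lay at 6.44, above 51.3% of all peaks. The smaller peak over the start of Pcdhgb6 (chr18:37741801-37742550) had a level per kb of 6.79, and that over the polymorphic pseudogene Pcdhgb8 (chr18:37761601-37761900) 6.55. The latter rested on 4 to 38 reads per library.

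Alpha and beta peaks were shallow. The median peak and library held 21 reads in alpha and 33.5 in beta, and 121.5 in the C-type gamma peaks. In KO3, the shallowest library, the median alpha peak held 8 reads. The highest alpha levels per kb were in 300 bp peaks outside exons, at chr18:37120801-37121100 (6.70), chr18:37125001-37125300 (6.68) and chr18:37025401-37025700 (6.67), followed by the exon peak of Pcdha11 (6.53). In beta the 4 highest were at chr18:37509901-37510350 (6.38) and chr18:37386451-37386750 (6.35), both outside the large exons, and on Pcdhb22 (chr18:37520101-37520700, 6.30) and Pcdhb7 (6.30). Levels per kb depend on width. Against the median of all peaks of the same width, these 4 beta peaks lay at 0.05, -0.16, 0.01 and -0.32, in that order. The 4 alpha peaks lay at 0.19, 0.17, 0.15 and 0.21. The peak at chr18:37386451-37386750 rested on 4 to 32 reads per library. The 19 beta exon peaks spanned only 6.01 to 6.30, a range of means comparable to the SD of a single peak between libraries (median over the beta peaks, 0.26).

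No clustered protocadherin peak passed the test of KO against WT. None of the 56 members was called by limma at an adjusted p under 0.05, nor was any of the 123510 peaks (0% called). With edgeR, the paper reports sites of changed accessibility in the KO at that threshold, mostly increases. The 0% therefore describes this fit and does not show that no site of the series changed. All 56 had an adjusted p of 1.00. At an unadjusted p under 0.05, 1 member was higher and 0 were lower in KO, against 0.909% and 1.37% of all peaks (2.28% in either direction). All KO values lay above all WT values in 1 member and below them in 1, against 2.7% and 4.1% of all peaks (6.8% in either direction). The KO mean was higher in 25 members and lower in 31, against 46.9% and 53.1% of all peaks, and the median KO minus WT difference over the members was -0.02 log2, as over all peaks (-0.02). A limit of these data is that the median SE of a member's difference was 0.29 log2 (limma).

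By cluster, alpha averaged 5.27 ± 0.14 log2 value in the 3 WT libraries and 5.19 ± 0.20 in the 3 KO libraries (SD), a difference of -0.07. Beta averaged 5.85 ± 0.12 in WT and 5.83 ± 0.22 in KO, a difference of -0.02. Gamma averaged 6.68 ± 0.19 in WT and 6.62 ± 0.35 in KO, a difference of -0.06. Each difference was smaller than the SD between libraries of one genotype, and that over all peaks was -0.03. Peaks between clusters averaged 5.25 ± 0.17 in WT and 5.39 ± 0.11 in KO. The alpha exon peaks, at 5.33 ± 0.17 and 5.33 ± 0.18, and the beta exon peaks, at 5.95 ± 0.16 and 5.94 ± 0.20, also differed by less than the SD between libraries.

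**Figure D4:**
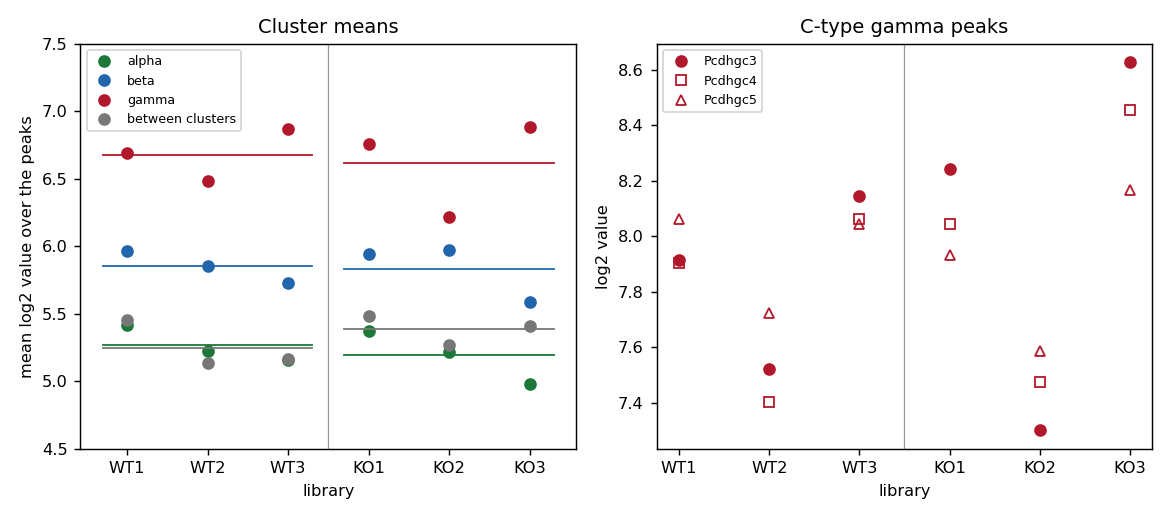
Left, mean log2 value over the peaks of each cluster in each library (points) and over each genotype (lines). Right, log2 values of the 3 C-type gamma peaks, in which WT2 and KO2 are the lowest of their genotype and the genotypes overlap.

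The member with the smallest unadjusted p lay between beta and gamma (chr18:37614151-37614600). Its log2 values were 5.37, 4.58 and 4.39 in WT and 5.71, 5.11 and 5.70 in KO, so that WT1 exceeded KO2. KO minus WT was 0.72 ± 0.33 (SE, limma, unadjusted p = 0.0428, adjusted p = 1.00). Among the members higher in KO, the exon peaks of Pcdha9 and Pcdha6 came next. Pcdha9 had 5.06, 4.05 and 5.13 in WT and 5.52, 5.33 and 5.00 in KO, a difference of 0.53 ± 0.35, and Pcdha6 differed by 0.36 ± 0.27. WT2 was low for Pcdha9, and both peaks overlapped between genotypes.

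Among those lower in KO, the peak at chr18:37120801-37121100 before Pcdhac2 came first. It had 5.06, 4.88 and 4.95 in WT and 4.82, 4.69 and 3.00 in KO, with only 2 reads in KO3, and the genotypes did not overlap. KO minus WT was -0.79 ± 0.47 (SE, limma, unadjusted p = 0.115, adjusted p = 1.00). Without KO3 the difference was -0.21. The exon peak of Pcdhb7 differed by -0.37 ± 0.26 and that of Pcdha1 by -0.43 ± 0.32, both with overlapping genotypes. The other member without overlap, chr18:37614901-37615200, which was noticed after its values were seen, had 4.56, 4.88 and 4.64 in WT and 4.93, 4.98 and 5.17 in KO. It differed by 0.33 ± 0.31.

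**Figure D5:**
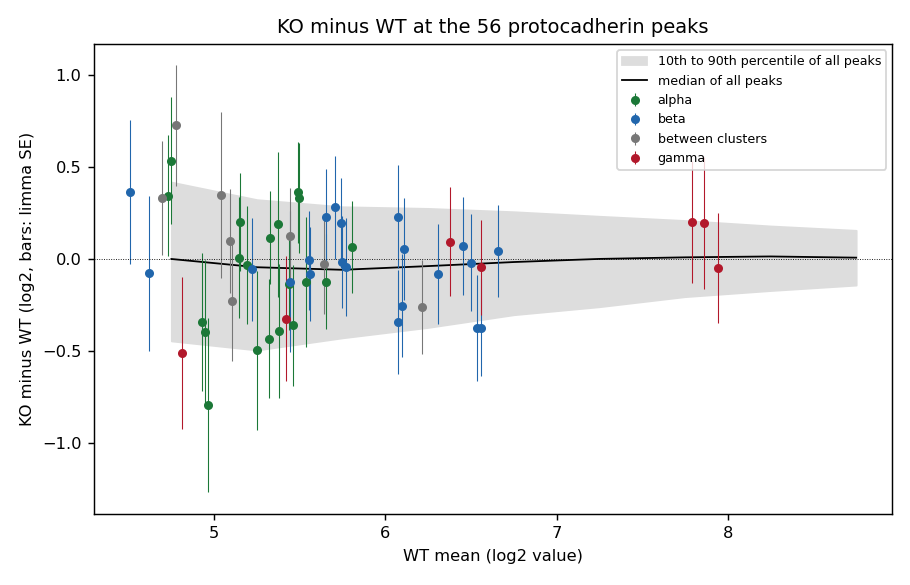
KO minus WT of the 56 members (log2, bars: limma SE) against the WT mean log2 value, with the median and the 10th to 90th percentile of all peaks in bins of WT level. The members scatter around 0 on both sides, and the 3 strongest, at Pcdhgc3, Pcdhgc4 and Pcdhgc5, differ by 0.20, 0.20 and -0.05.

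Of the 3 other genes named inside the window, Diap1 and Taf7 had stronger peaks per kb than any of the 56 members, and Gm6756 had not. The strongest peak named after Diap1 lay at 7.76 and that of Taf7, a general transcription factor gene, at 7.58 log2 value per kb in WT. KO minus WT was -0.07 and -0.06. Of 15 non-clustered protocadherins and protocadherin-like cadherins, 13 had a named peak, with 172 peaks in all, of which 102 lay at Pcdh15. The strongest peak of Pcdh1 reached 8.43 log2 value per kb, above all 56 clustered members, and that of Cdhr2, a component of the intestinal brush border, 7.04. No peak of the list was called (limma), and 3 were lower and 0 higher in KO at an unadjusted p under 0.05, against 1.37% and 0.909% of all peaks, with a median difference of -0.07. Factors known to act on clustered protocadherin genes, among them Ctcf and cohesin subunits, had a named peak in 12 of 14 genes and 42 peaks. Their median KO minus WT was -0.00, none was called, and 0 passed an unadjusted p of 0.05 in either direction. The Ctcf peak lay at 7.28 log2 value per kb in WT and differed by 0.11, and that of Rad21, a cohesin subunit, at 7.80 with a difference of -0.09.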

How the data were processed

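The authors trimmed reads with Trim Galore 0.4.1, mapped them to GRCm38 with Bowtie 2 2.2.5 and, in SeqMonk, removed duplicates, set a mapping quality limit of 20 and called MACS peaks once for the series; which libraries were pooled is not stated. The deposited values are log2 read counts per peak, scaled by the authors to the largest library. A second deposited table holds the authors' edgeR comparison and was not used. No value column lacked a sample.

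Because the deposited values are log2 and not counts, limma 3.58.1 (lmFit, eBayes with trend, R 4.3.3) was run on all 123510 peaks in place of the authors' count test. The test was two-sided, with Benjamini-Hochberg adjustment. In simulated data limma recovered 72.5% of 200 peaks changed by 2 on the log2 scale, with 3 false calls. The changed peaks were drawn from all peaks. Every peak got normal noise of the same SD, the median over peaks, and then counting error at the depth of each library. That SD already held counting error. Noise was drawn separately for each library, so variation shared between libraries was not simulated. The share recovered therefore does not give the power for the members, many of which are shallow. Reads were recovered from the spacing of the values (100% whole), and cover counting error only. They entered a voom fit as an alternative, and the authors' edgeR test was not run on them. Nothing says whether each library came from 1 animal, so p-values measure the spread between libraries. Levels were compared as log2 value minus log2 of the width in kb. Genes came from GENCODE vM21; 1 alpha record was renamed by its RefSeq position. A "large exon" is the longest exon starting near the gene start. Members, lists and tests were chosen with earlier results of these data known. Named peaks were the 3 of smallest p in each direction, the 4 strongest per kb in each cluster and those within 1 kb of a C-type start. Alternatives covered scaling, filters, left-out libraries, a replicate block, voom, membership and distances. WT and KO share replicate numbers, which the main fit did not use as pairs. Some genes of the neuronal and glial marker list are not reported here.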

Additional observations from a re-analysis of the deposited data

How the results depend on the processing

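No member was called under any alternative. These covered 4 other scalings, a pseudocount of 5, a minimum mean linear value of 50 and voom. They also covered thresholds of 0.01 and 0.1, named members only and each library left out. The smallest adjusted p of a member was 0.604 (limma, replicate block). Over all peaks, the 4 other scalings called 2 or 3 and voom called 3. Leaving out 1 library called 0 to 30 peaks, and leaving out both number 2 libraries called 143. WT and KO share replicate numbers. The deviations of same-numbered libraries correlated at 0.04, 0.42 and 0.41, and those of unlike-numbered libraries at -0.46 to 0.04. Each deviation was taken from the mean of the 3 libraries of its genotype, so these correlations are tied to each other. They show a contrast of number 2 against number 3 shared by both genotypes, not separate likenesses of each number. Number 1 showed no such likeness. The sources do not state a pairing, and the main fit used none. With the replicate block, 0 members were called (272 of all peaks), and the cluster differences averaged -0.07, -0.02 and -0.06 for alpha, beta and gamma.

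The 2 members without overlap became 1 with trimmed mean scaling (7.7% of all peaks) or equal totals (6.8%). With the minimum of 50 there were 0 of 25 members (5.0%). With same-numbered differences of 1 sign counted in the block there were 14 (26.3%). Leaving out 1 library gave 5 to 11 (11.2% to 20.7%). Without both number 2 libraries, chosen after seeing the data, there were 16 (31.6%). Fewer libraries overlap less often by construction. The alpha difference was 0.25 with the minimum of 50, by fewer peaks. Leaving out libraries gave -0.17 to 0.03 (alpha), -0.09 to 0.11 (beta) and -0.19 to 0.14 (gamma), so the sign of these differences rests on single libraries.

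In WT, beta minus alpha was 0.59, gamma minus beta 0.83 and gamma minus alpha 1.41 per peak. Against all peaks of the same width, chosen after seeing the data, they were -0.24, 0.15 and -0.10. Without the C-type peaks gamma minus beta was 0.30 and gamma minus alpha 0.16. Without each WT library the per kb differences were -0.16 to -0.12, 0.28 to 0.54 and 0.15 to 0.38. Within 2 kb, 8 alpha and 18 beta starts had a peak, over the start itself 0 beta.

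Among named peaks, differences turned sign, none called, as follows. Pcdha11 came to 0.066 without both number 2 libraries. chr18:37386451-37386750 came to 0.11 with quantile scaling and 0.0437 with voom, chr18:37509901-37510350 to 0.0171 and 0.11, and Pcdhb22 to 0.064 with voom. With a library left out, chr18:37386451-37386750 ranged from -0.40 to 0.19, chr18:37509901-37510350 from -0.16 to 0.13, Pcdhb22 from -0.17 to 0.0503, Pcdhgb6 from -0.11 to 0.31, Pcdhgc3 from -0.0888 to 0.57, Pcdhgc4 from -0.0305 to 0.46 and Pcdhgc5 from -0.18 to 0.11. Depth limits the precision of members with few reads.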
